A study of Brassica rapa and Brassica oleracea and Brassica napus with 3 samples.

Results

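The 3' untranslated regions (3' UTRs) annotated in *B. napus* were examined in a BS-seq library of young leaves. They were taken as every entry of the methylation table that is named as a 3' UTR and lies on chromosomes A01 to A10 or C01 to C09. This gave 42896 entries of the 1420313 in the table, 21854 in the C subgenome (Cn) and 21042 in the A subgenome (An). The entries carried 26091 distinct identifiers, 13367 in Cn and 12724 in An, because the table lists the closing feature of nearly every gene 2 times. They belonged to 23075 transcripts of 16822 genes, so that 16.2% of the 52557 annotated Cn genes and 18.8% of the 44359 annotated An genes had a 3' UTR. A further 255 entries on unplaced scaffolds had no 3' UTR level and were left out.

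The library came from *B. napus* ZS11, an allotetraploid rapeseed cultivar that carries both subgenomes in 1 nucleus, with no mutation or treatment given in the labels. Leaves were collected from 2-week-old seedlings (14 days) grown hydroponically in a phytotron. There was 1 library of this species, so no value has a replicate and no test was made. Both subgenomes were read in that library, and whether the leaf material came from 1 plant or a pool was not given in the sources used here. The label of this library describes RNA extraction, whereas the methods of the study describe genomic DNA treated with bisulfite, and the values are methylated fractions. The other libraries of the series, of *B. rapa* and *B. oleracea*, were not used here.

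The 3' UTR is the transcribed stretch between the stop codon and the poly(A) site. It carries signals for cleavage and polyadenylation and binding sites for proteins and small RNAs that act on the stability and translation of the mRNA. In plants, cytosines are methylated in CG, CHG and CHH contexts (H is any base but G). Methylation inside active genes is mostly in CG and lies in the exons between the gene ends, while transposons are methylated in all contexts.

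Each entry held the methylated fraction in 12 bins in the direction of transcription, namely 4 upstream, 4 across the 3' UTR and 4 downstream. The upstream bins of a 3' UTR lie on the side of the coding sequence, and the downstream bins of the last 3' UTR entry matched those beyond the transcript in 100% of transcripts. Fractions were turned into percent, and the level of a 3' UTR was the mean of its bins where at least 2 of the 4 had a value. By that rule 20223 Cn and 19630 An entries had a level, and 1631 (7.46%) and 1412 (6.71%) did not. Of those without a level, 1056 Cn and 902 An entries had no value in any of the 4 bins. The number of reads behind a value, the cytosine context, the width of the bins and the length of the 3' UTR were not given, so that a value of 0 is a listed value with unknown depth. Spread is given as the SD of the chromosome means (9 C and 10 A chromosomes), and chromosomes of 1 library are not replicates.

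The 3' UTRs were close to unmethylated in both subgenomes. The mean level was 1.04% ± 0.168 in Cn and 0.816% ± 0.118 in An, and the median was 0 in both. Exactly 0 was listed for 14394 Cn entries (71.2% ± 2.01) and 14510 An entries (73.9% ± 1.28). The background in the same library was 59.9% of all CDS entries and 19.2% of gene bodies at exactly 0 in Cn, and 65% of CDS entries and 21% of gene bodies in An. Of the CDS entries of the same transcripts as the 3' UTRs, 61.1% in Cn and 63.7% in An were at exactly 0. A gene body spans more sequence than its 3' UTR in the same number of bins, so these shares are given side by side and the share of zeros is compared below between single features. Where a 3' UTR level was above 0 it was usually small, with a median of 1.12% in Cn and 0.999% in An.

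Few 3' UTRs were highly methylated. A level of at least 20%, called highly methylated here, was reached by 224 Cn entries (1.11%) and 164 An entries (0.835%). The background at the same threshold was 9.57% of gene bodies and 5.98% of all CDS entries in Cn, and 6.03% and 3.54% in An. Among the CDS entries of the same transcripts, 1.14% in Cn and 0.990% in An reached it, so the small share was common to the 3' UTRs and the CDS of these transcripts. The 90th percentile of the 3' UTR level was 2.03% in Cn and 1.53% in An, and the 99th percentile was 21.7% and 17.5%. The 202 highest Cn entries, 1% of those with a level, held 32.6% of the summed level, and the 196 highest An entries held 38.1%. The mean therefore followed a small set of 3' UTRs, while the typical 3' UTR had no listed methylation.

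Across the bins, methylation was low over the whole 3' UTR and stepped up at its end. In Cn the means of the 4 bins of the 3' UTR were 0.944%, 0.935%, 1.03% and 1.20%, between 1.91% in the bin just upstream and 5.91% in the bin just downstream. In An the 4 bins had 0.731%, 0.802%, 0.821% and 0.885%, between 1.55% just upstream and 4.38% just downstream. Further from the 3' UTR the downstream bins reached 8.77% in Cn and 6.03% in An. The 4 downstream bins together had 7.73% ± 0.468 in Cn and 5.57% ± 0.506 in An, so that the downstream flank exceeded its own 3' UTR by 6.61 percentage points in Cn and by 4.70 points in An, many times the SD of the chromosome values (0.478 and 0.576).

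**Figure D1:**
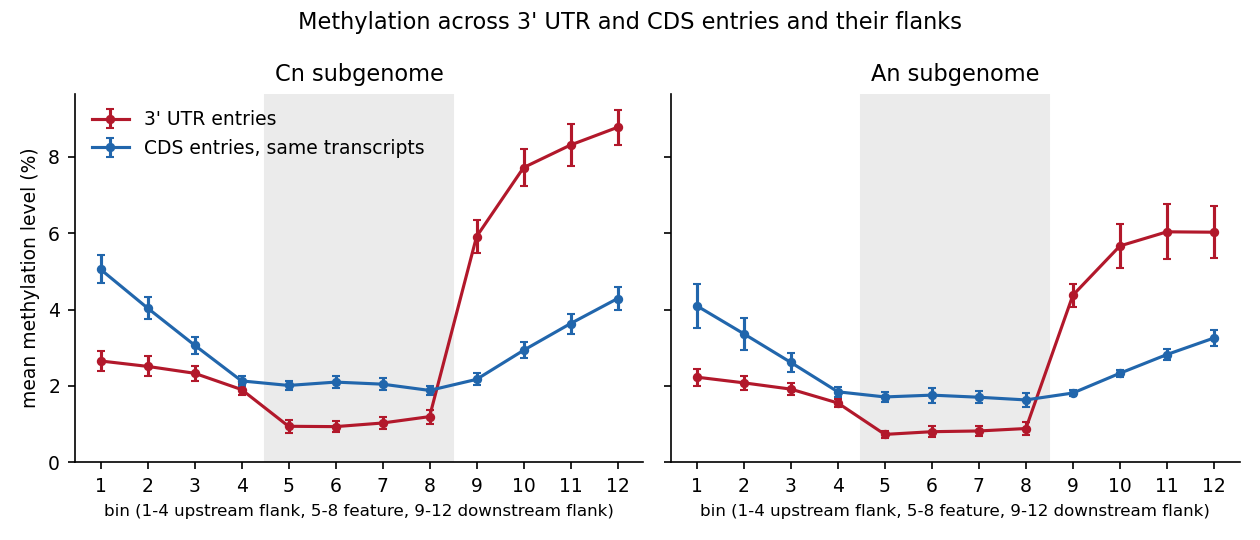
Mean methylation level (%, vertical axis) in the 12 bins of 3' UTR entries (red) and of CDS entries of the same transcripts (blue), with the 4 bins of the feature shaded. Points are means over entries and bars the SD of the chromosome means. The red line is lowest over the 3' UTR, with bin means up to 1.20% in Cn and 0.885% in An, and climbs to 8.77% and 6.03% downstream, while the blue line stays between 1.63% and 2.10% across the CDS.

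Bins without a value were more frequent in the 3' UTRs than beside them, at 11.2% of the 3' UTR bins in Cn and 10.0% in An, against 2.07% and 2.18% of the downstream bins. Of the bins with a value, 84.3% in Cn and 86.0% in An were exactly 0 in the 3' UTRs, against 22.8% and 27.7% in the downstream flank. CDS entries of the same transcripts had no value in 14.8% of their bins in Cn and 13.7% in An, and 76.8% and 78.8% of those with a value were 0. Bin width and depth are not in the table, so the zeros could not be set against either.

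The Cn 3' UTRs had a higher mean than the An 3' UTRs by 0.224 points. That gap was wider than the chromosome SD of either subgenome, yet the chromosomes overlapped. Means ran from 0.777% (C05) to 1.25% (C08) in Cn and from 0.577% (A05) to 0.994% (A10) in An, and 6 of the 9 C chromosomes lay above A10. Zeros ran from 67.4% (C09) to 74.0% (C06) in Cn and from 72.4% (A06) to 76.0% (A07) in An. When each subgenome was divided by the mean over all bins of its own gene entries, 8.58% in Cn and 6.22% in An, the order turned round, with the 3' UTR level at 12.1% of that mean in Cn and 13.1% in An. The higher 3' UTR level of Cn thus held on the deposited scale and not relative to that mean. The mean takes in the flanks and all gene entries, most of them without a 3' UTR. Gene bodies of the genes with a 3' UTR averaged 2.00% in Cn and 1.65% in An, which lie closer together. The turn is therefore tied to the divisor used.

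Chromosome A05 combined the lowest 3' UTR mean of all 19 chromosomes, 0.577%, with the highest gene body mean of An, 5.67%, and with the highest share of An 3' UTR entries without a level, 10.9%. Only 6 of its 1827 entries with a level (0.328%) were highly methylated. On C08, which had the highest 3' UTR mean, 36 of 2012 entries (1.79%) were highly methylated, and on C07 10 of 2087 (0.479%) were. Leaving out any 1 chromosome kept the Cn mean between 1.02% and 1.08%, the An mean between 0.800% and 0.841%, and the difference between 0.199 and 0.260 points.

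Compared with the coding sequence of the same transcript, the 3' UTR was less methylated in both subgenomes. The question was whether the untranslated 3' end of a transcript carries as much methylation as its coding exons. For each transcript the mean over its 3' UTR entries was set against the mean over its CDS entries. Over 11031 Cn transcripts the 3' UTR had 0.981% ± 0.166 and the CDS 1.88% ± 0.100, a difference (3' UTR minus CDS) of -0.898 ± 0.175 points. Over 10619 An transcripts the 3' UTR had 0.779% ± 0.125 and the CDS 1.57% ± 0.122, a difference of -0.787 ± 0.182 points. The difference was below 0 on 9 of 9 C chromosomes, from -1.22 (C05) to -0.667 (C08), and on 10 of 10 A chromosomes, from -0.986 (A02) to -0.460 (A10). The range of the C chromosomes and that of the A chromosomes overlapped, so the gap between 3' UTR and CDS did not separate the subgenomes.

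**Figure D2:**
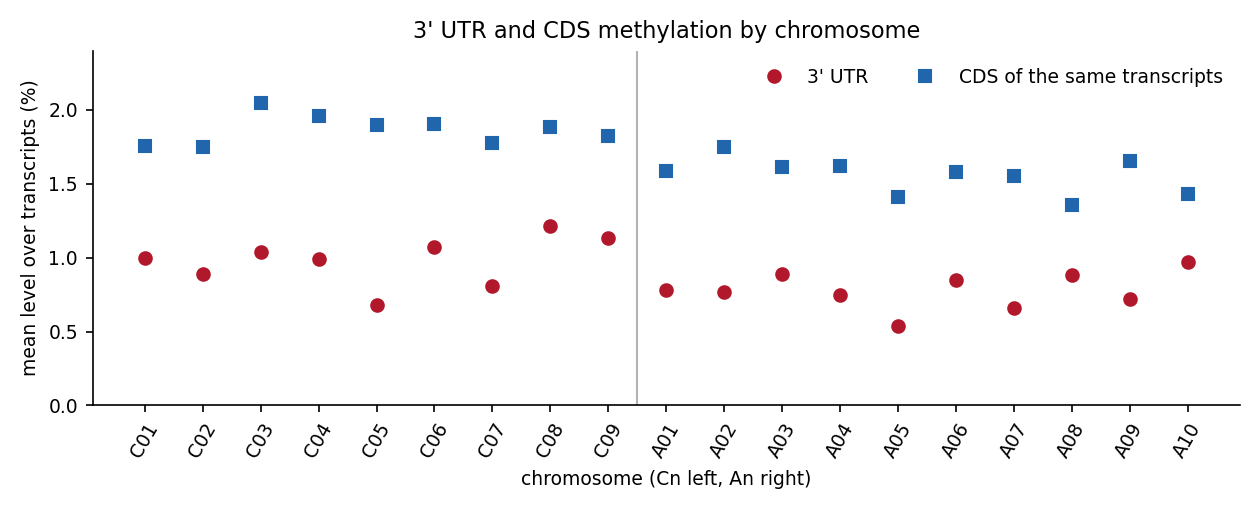
Mean level over transcripts (%, vertical axis) of 3' UTRs (red circles) and of the CDS of the same transcripts (blue squares) on each chromosome, with the 9 C chromosomes left of the line and the 10 A chromosomes right of it. On every chromosome the 3' UTR lies below the CDS, with differences (3' UTR minus CDS) from -1.22 points on C05 to -0.460 points on A10.

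In single transcripts the order varied. The 3' UTR was above the CDS in 1585 Cn transcripts (14.4%) and below it in 8771 (79.5%), and both were 0 in the remaining 675. In An the 3' UTR was above in 1430 (13.5%), below in 8436 (79.4%) and both were 0 in 753. The CDS value averages several exons and so is seldom exactly 0 (8.10% of Cn and 9.45% of An transcripts), whereas a 3' UTR is usually 1 feature. Against the last CDS entry alone, a single feature beside the 3' UTR, the 3' UTR was above in 19.8% and below in 42.8% of 10338 Cn transcripts, and both were 0 in 37.4%. In An the corresponding shares of 10063 transcripts were 18.4%, 40.6% and 41.0%. Measured against that single feature the mean difference was smaller, -0.811 points in Cn (0.940% in the 3' UTR and 1.75% in the last CDS entry) and -0.660 points in An (0.761% and 1.42%), and remained below 0 on all 19 chromosomes. The 3' UTR was exactly 0 in 69.7% of these Cn transcripts and the last CDS entry in 51.2%, with 72.5% and 54.2% in An.

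The CDS at the opposite end of the transcript came close to the 3' UTR. Against the first CDS entry the 3' UTR differed by -0.109 points in Cn (0.974% and 1.08%, 10135 transcripts) and by -0.0924 points in An (0.769% and 0.861%, 9855 transcripts). These differences were within the SD of the chromosome values, 0.223 and 0.152 points, and were below 0 on 5 of 9 C and 7 of 10 A chromosomes. Against the 5' UTR, the untranslated stretch ahead of the start codon, the 3' UTR had a higher mean, while the median difference was 0 in both subgenomes. The 3' UTR had 0.963% against 0.593% over 9168 Cn transcripts, a difference of 0.370 ± 0.212 points, and 0.735% against 0.531% over 8802 An transcripts, a difference of 0.204 ± 0.192 points. The difference was above 0 on all 9 C chromosomes and on 9 of 10 A chromosomes. At exactly 0 were 69.3% of 3' UTRs and 78.0% of 5' UTRs in Cn, and 72.4% and 79.9% in An. Bins without a value were more frequent in the 5' UTRs, at 21.9% in Cn and 21.1% in An, than in the 3' UTRs, at 11.2% and 10.0%. In An the difference was 0.104 points with a value in all 4 bins and 0.119 points over unsplit 3' UTRs, both within the SD. When bins at exactly 0 were left out the sign turned, to -1.97 ± 3.05 points over the 335 Cn transcripts left and -1.43 ± 2.52 points over the 262 An transcripts left, both smaller than their SD.

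At high levels the order of 3' UTR and CDS depended on how the CDS was summarised. Entry by entry, the shares at 20% or more were 1.11% of 3' UTRs and 1.14% of CDS entries of the same transcripts in Cn, and 0.835% and 0.990% in An. Per transcript, that level was reached by 112 of the Cn 3' UTRs (1.02%) and by 22 of the CDS means (0.199%), which average several exons, and in An by 79 (0.744%) and 18 (0.170%). With the last CDS entry alone in place of the CDS mean the counts were 97 against 79 in Cn and 72 against 59 in An, so the gap was narrower than against the mean over exons. In the plot of the share of transcripts by level, the curves of the 3' UTR and the last CDS entry cross between 10% and 20%. Below the crossing the last CDS entry was ahead, as at a level of at least 5%, which 4.19% of Cn 3' UTRs and 10.7% of last CDS entries reached, and in Cn it was ahead again at 50%, with 0.0580% of 3' UTRs and 0.0677% of last CDS entries. Transcripts with both 3' UTR and CDS mean at 20% or more were few, 9 in Cn (8.04% of the highly methylated 3' UTRs and 40.9% of the highly methylated CDS) and 5 in An (6.33% and 27.8%). The 3' UTR lay over 10 points above the CDS mean in 207 Cn and 125 An transcripts, and over 10 points below it in 75 and 51. Against the last CDS entry alone that order turned round. There the 3' UTR lay over 10 points above in 163 Cn and 109 An transcripts, and over 10 points below in 292 and 192.

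**Figure D3:**
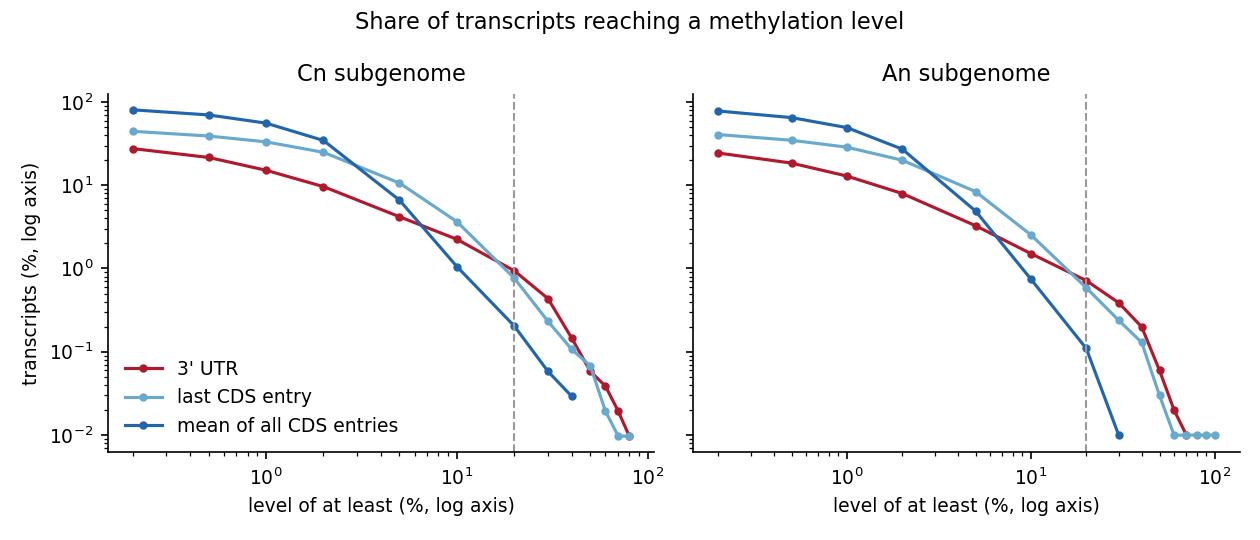
Share of transcripts (%, log axis) whose level is at least the value on the horizontal axis (%, log axis), for the 3' UTR (red), the last CDS entry (light blue) and the mean of all CDS entries (dark blue) of 10338 Cn and 10063 An transcripts, with 20% marked by the dashed line. Red is lowest at small levels and ahead of both blue curves at 20%, where it stands at 0.938% in Cn and 0.715% in An.

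Over the whole range the 3' UTR level of a transcript told little of its CDS level. Spearman's rho across transcripts, which share 1 library and its depth, was 0.0940 in Cn and 0.0929 in An for the CDS mean and 0.119 and 0.123 for the last CDS entry, too weak in values this sparse to count as a finding. Among transcripts grouped by CDS level, the mean of the 3' UTR was 0.992% at a CDS of exactly 0, 0.825% above 0 and under 1%, 0.888% from 1% to under 5%, 2.10% from 5% to under 20% and 15.4% at 20% or more in Cn. In An the means in the same order were 0.771%, 0.613%, 0.749%, 2.17% and 9.81%. The highest class held only 22 Cn and 18 An transcripts, in which 13.6% and 38.9% of the 3' UTRs were still exactly 0.

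The mean 3' UTR level rose with the level of the sequence on its downstream side. When transcripts were grouped by the level in the bin just downstream of the 3' UTR, the mean of the 3' UTR was 0.384% where that bin was exactly 0, 0.578% above 0 and under 1%, 0.944% from 1% to under 5%, 1.33% from 5% to under 20% and 2.67% at 20% or more in Cn. The An means were 0.369%, 0.430%, 0.842%, 1.17% and 2.63%. The median of the 3' UTR was 0 in every class of both subgenomes. The share of 3' UTRs at exactly 0 was 76.9% in the lowest and 51.4% in the highest class in Cn, and 77.6% and 53.4% in An. The share of highly methylated 3' UTRs was 0.139% in the lowest and 4.11% in the highest class in Cn, and 0.0910% and 4.13% in An. The CDS means of the same transcripts moved far less, from 1.71% to 1.98% over the classes in Cn and from 1.42% to 1.89% in An.

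**Figure D4:**
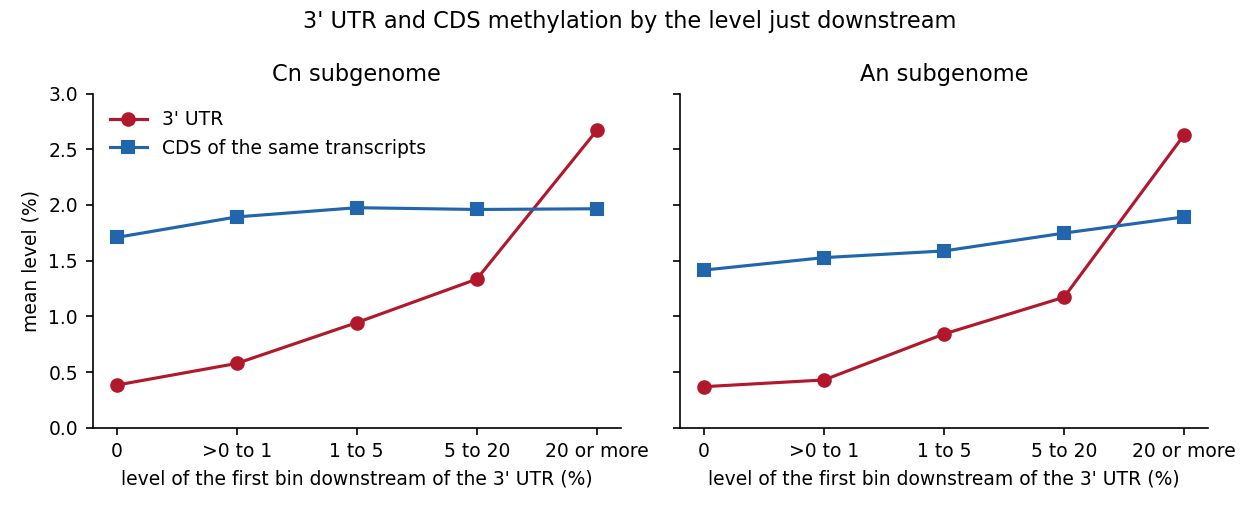
Mean level (%, vertical axis) of 3' UTRs (red circles) and of the CDS of the same transcripts (blue squares) in 5 classes of the level in the first bin downstream of the 3' UTR (horizontal axis). The red line climbs to 2.67% in Cn and 2.63% in An in the highest class and there passes the blue line, which spans 1.71% to 1.98% in Cn and 1.42% to 1.89% in An.

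The highly methylated 3' UTRs had a profile of their own. Their 224 Cn entries came from 106 genes and the 164 An entries from 87 genes. The level of the 3' UTR chose them, so only the bins beside it are informative. In Cn the mean was 7.36% in the bin just upstream and 17.3% in the bin just downstream, with 15.0% in the last downstream bin, and in An 5.42%, 16.4% and 11.2%. The medians just upstream were low, 3.12% in Cn and 1.54% in An, while those just downstream were 17.9% and 16.2%.

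Counted with 1 transcript per gene, 83 Cn and 62 An genes had a highly methylated 3' UTR. The bin just downstream averaged 19.1% in these Cn genes and 5.83% in the 7807 Cn genes with a 3' UTR under 20% and a value there, and 17.5% and 4.31% in An. That bin was at 20% or more in 40 of 80 such Cn genes (50%) and in 25 of 56 An genes (44.6%), against 10.0% and 6.72% of the genes with a lower 3' UTR. The last CDS entry was at 20% or more in 15 of 73 Cn genes (20.5%) and in 7 of 57 An genes (12.3%), against 0.556% and 0.519%. Of the 70 Cn genes with values on both sides, 28 were highly methylated downstream only, 10 in the last CDS entry only, 5 on both sides and 27 on neither. Of the 51 An genes these counts were 18, 2, 4 and 27. In 8 Cn and 13 An genes both neighbours, the last CDS entry and the bin just downstream, were under 5%. Among genes with a 3' UTR under 20% and values on both sides, this held for 4601 of 7355 in Cn and 5191 of 7313 in An. Neither side was highly methylated in 6585 and 6785 of those genes. Bins further downstream were not part of these counts.

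The 4 highest Cn 3' UTRs with values in all 12 bins show these forms. In BnaC09G0017400ZS the bins of the 3' UTR had 44.3%, 83.8%, 82.8% and 50%, a level of 65.2%, next to 0.206% just upstream and 1.47% just downstream, and the CDS had 4.72%. The bins beside the 3' UTR of this gene were thus low on both sides, although its outer downstream bins reached 34.2%. BnaC06G0297700ZS had 33.7%, 49.8%, 75% and 61.0% in its bins (level 54.9%), with 0 just upstream, 17.9% just downstream and 0.538% in the CDS. In the second part of the 3' UTR of BnaC01G0180400ZS the bins climbed towards the 3' end, 13.6%, 40%, 65.4% and 100% (level 54.8%), with 6% just upstream and 12.5% just downstream. BnaC03G0593800ZS had an even 53.5%, 47.3%, 53.8% and 50% (level 51.1%) over the second part of its 3' UTR, with 3.33% before and 17.8% after it.

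In An the 4 highest were alike in having little methylation upstream. BnaA03G0344100ZS had 19.0%, 84.4%, 85.5% and 34.9% over the 3' UTR (level 56.0%), 0.259% just upstream and 16.8% just downstream. Its remaining downstream bins were at or under 1.01%, so methylation dropped off within the downstream flank. BnaA03G0474300ZS had 5.88%, 77.6%, 90.4% and 42.9% (level 54.2%), with 0.103% just upstream, 20.7% just downstream and a CDS of 0.0770%. BnaA08G0243600ZS fell along its 3' UTR instead, with 70.1%, 72.1%, 48.4% and 16.5% (level 51.8%), 1.04% before and 6.94% after it. BnaA09G0476900ZS had 0, 57.1%, 77.7% and 71.9% (level 51.7%), and methylation went on downstream at 18.2% to 23.1% per bin. In 3 of these 4 genes the first bin of the 3' UTR was the lowest of its 4 bins.

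The 3' UTRs nearest the median of the levels above 0 look quite different. BnaC04G0105800ZS had 0, 1.94%, 2.67% and 0 in its 3' UTR (level 1.15%), and its downstream bins had 0.542%, 10.8%, 18.2% and 3.74%. BnaA09G0396200ZS had 0, 2.04%, 2.04% and 0 (level 1.02%), with 17.3% to 21.6% in each downstream bin. Both had a methylated downstream flank beyond a 3' UTR that was almost free of methylation, although in BnaC04G0105800ZS the bins adjoining the 3' UTR were at 0 and 0.542%.

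The median CDS level over transcripts with both levels was 1.26% in Cn and 0.973% in An. Transcripts whose 3' UTR and CDS entries all had values in 4 of 4 bins were ranked by 3' UTR minus CDS. Those of the highest difference had CDS levels of at most 1.25%, and a low CDS is favoured by that choice. In Cn these were BnaC01G0160900ZS (48.5% in the 3' UTR and 0.861% in the CDS, difference 47.7 points), BnaC07G0178300ZS (44.7% and 1.25%, 43.4 points) and BnaC01G0249800ZS (40.9% and 0, 40.9 points). The last of these had 0 in all 4 upstream bins, 47.7%, 69.2%, 31.6% and 15.2% in the 3' UTR, and 29.8% just downstream. In An they were BnaA09G0476900ZS (51.7% and 0.928%, 50.8 points), BnaA04G0185200ZS (49.4% and 0.149%, 49.2 points) and BnaA06G0305900ZS (38.3% and 0.202%, 38.1 points). BnaA04G0185200ZS switched within its 3' UTR, with 0 in the first bin and 90.3%, 68.3% and 38.9% in the next 3.

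At the other extreme of the same transcripts, those of the lowest difference paired a methylated CDS with a low 3' UTR, as that choice requires. Over all transcripts with a CDS of 20% or more, 3' UTR means were the highest of the CDS classes, 15.4% in Cn and 9.81% in An. Of the genes named at this extreme, only BnaC03G0790500ZS had more than 1 CDS entry. BnaC01G0399300ZS had 0.325% in the 3' UTR and 24.9% in the CDS (-24.6 points), BnaC01G0342800ZS 5.24% and 26.0% (-20.8 points) and BnaC03G0790500ZS 1.03% and 21.4% (-20.3 points). In the first of them the bins of the 3' UTR had 1.30%, 0, 0 and 0, and the bin just downstream 17.6%, while the bin just upstream had 1.56% and the one before it 16.7%. The first bin of the 3' UTR of BnaC01G0342800ZS had 21.0% and its other bins 0, so there methylation reached into the 3' UTR. In An the 3' UTRs of BnaA03G0396200ZS, BnaA03G0022400ZS and BnaA07G0039500ZS were 0 in all 4 bins, below CDS levels of 20.2%, 20.04% and 19.2%. Downstream these 3 genes stayed low, with flank levels of 0, 0.192% and 1.29%, unlike the Cn genes, whose flanks had 22.9%, 21.8% and 15.5%.

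Among genes that the study drew as browser examples, *AGL24*, which encodes a MADS-box transcription factor that promotes flowering in *Arabidopsis*, had a 3' UTR of exactly 0 in all 4 bins in both subgenomes. The copies differed outside it. The Cn copy, BnaC08G0434600ZS, had a CDS of 3.19% and a downstream flank of 10.97%, with 27.5% in its second downstream bin, and the An copy, BnaA09G0581700ZS, had 0.0715% and 0.398%. BnaC04G0306900ZS had a value in only 1 of the 4 bins of its 3' UTR, listed at 0, and so no level, while its downstream flank had 11.8%. BnaC04G0301200ZS had no annotated 3' UTR.

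Some 3' UTRs are split into parts by introns, and these were more often above 0. Of the transcripts with a 3' UTR, 1195 in Cn and 1113 in An had more than 1 part, up to 10 and 11. The split 3' UTRs averaged 1.54% in Cn and 1.33% in An, against 0.919% and 0.715% for unsplit ones. Exactly 0 was found for 39.3% of split and 73.0% of unsplit 3' UTRs in Cn, and for 43.5% and 75.7% in An, and a split 3' UTR has more bins in which to be above 0. The last part was lower than the first part by 0.458 points in Cn (1.21% and 1.67%, 962 transcripts) and by 0.345 points in An (1.16% and 1.51%, 911 transcripts). In An this was within the SD of the chromosome values (0.591), and in Cn it was barely above it (0.433), while the last part was higher in 294 and lower in 305 of the Cn transcripts. In An the last part was higher in 268 transcripts and lower in 251, against the direction of the mean.

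Where alternative transcripts of 1 gene shared their 3' UTR level, the shared level was mostly 0. Of 2006 Cn genes with levels for more than 1 transcript, 1231 (61.4%) had the same level in each, and in 1115 of these it was 0. In An it was 1157 of 1831 genes (63.2%), 1063 of them at 0. Among the genes not at 0 in every transcript, the levels mostly differed between transcripts in both subgenomes. Levels of the transcripts of 1 gene spread over more than 1 point in 307 Cn and 280 An genes and over more than 10 points in 37 and 25. The widest spread was 60.2 points in Cn and 77.2 points in An.

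Genes with an annotated 3' UTR had a lower mean gene body level than genes without one, but a higher median. Their gene bodies averaged 2.00% ± 0.160 in Cn and 1.65% ± 0.136 in An, against 5.94% ± 0.360 and 4.16% ± 1.07 in genes without one. Highly methylated gene bodies made up 0.605% of the Cn genes and 0.328% of the An genes with a 3' UTR, against 11.4% and 7.49% of those without. The median went the other way, at 1.28% in Cn and 1.04% in An with a 3' UTR and 0.808% and 0.389% without. Gene bodies at exactly 0 made up 4.91% and 5.43% of the genes with a 3' UTR, against 22.1% and 25.0% of those without. The downstream flank differed less, at 7.91% and 5.58% in genes with a 3' UTR and 9.70% and 7.34% in genes without. The levels of 3' UTRs given here therefore describe genes among which highly methylated gene bodies are few.

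Homoeologous An and Cn genes were paired by the tetrads of the study, of which the first 1998 were at hand. Both genes had an annotated 3' UTR in 271 pairs, only the Cn gene in 144, only the An gene in 117 and neither in 1466. The 241 pairs with levels on both sides all had their An gene on A01 (172) or A02 (69). The mean 3' UTR level in these pairs was 0.307% in Cn and 0.533% in An, a difference of -0.226 points, opposite in sign to that over all entries. Over the 183 pairs with a value in all 4 bins it was -0.0710 points. The difference over the 241 pairs rested on 2 of them. BnaC02G0404300ZS had 0 and its An partner BnaA02G0296200ZS 35.8%, and BnaC01G0103500ZS had 0 and BnaA01G0085100ZS 21.9%. Without the pair of the widest difference the mean difference was -0.0778 points, and without both pairs it was 0.0134 points. Without the 3 widest pairs it was -0.0192 points, so the sign was not settled. These alternatives were chosen after seeing the data.

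Pair by pair the 3' UTRs were mostly 0 on both sides, in 144 of 241 pairs (59.8%). The Cn copy was higher in 47 pairs and the An copy in 50. The largest differences in favour of Cn among pairs with values in all 4 bins of each 3' UTR were 4.09 points (BnaC01G0049300ZS, An partner at 0), 3.94 points (BnaC01G0199300ZS, partner at 0) and 3.77 points (BnaC02G0320000ZS, partner at 0). In favour of An, after the pair of -35.8 points, BnaC01G0418200ZS had 1.60% and BnaA01G0338600ZS 4.63% (-3.03 points), and BnaC02G0363500ZS had 0.395% and BnaA02G0266900ZS 2.39% (-2.00 points). Across pairs, Spearman's rho between the 2 copies was 0.0385 for the 3' UTR level and 0.484 for the downstream flank, both as a description over genes that share 1 library. In these pairs 78.4% of Cn and 75.1% of An 3' UTRs were exactly 0. The first rho therefore says little, and the 2 values are not a like comparison.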

How the data were processed

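Young leaves of *B. napus* ZS11 were profiled by BS-seq in 1 library. The authors filtered reads with Fastp, mapped them to the ZS11 genome with BatMeth2. The deposited values are fractions of methylation (0 to 1), with 12 bins to each feature. SAMtools is also named in the submitters' processing notes. Coverage, cytosine context, conversion rate, coverage minimum and bin width were not given in the sources used here, so depth is unknown and no interval was computed.

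Fractions were multiplied by 100. A region level was the mean of its bins, with at least 2 of 4 valued, and 20% was the threshold for highly methylated. Levels were averaged over entries, and CDS and 5' UTR comparisons were paired within transcripts. The closing feature of each gene is listed 2 times under 1 identifier (96915 of 96919 genes). Of the 16805 repeated 3' UTR identifiers, 88.6% had the same 4 values, and every entry was counted in the main values. Counting each identifier once was an alternative chosen after seeing the data. Pairs came from the first 1998 entries of the tetrad table, and their identifiers only were used.

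Genes were named by a rule: browser examples of the study, the 4 highest and the most typical 3' UTR per subgenome with values in all 12 bins, the 3 highest and 3 lowest differences from the CDS, and the 3 highest and 3 lowest pair differences with all 4 bins valued. BnaC01G0103500ZS and BnaA01G0085100ZS lie outside this rule and were chosen after their values were seen. The members, lists and rules were chosen with earlier results of these data known. The 3' UTR levels, the count of highly methylated 3' UTRs and the 3' UTR minus CDS difference were tested on simulated data. The simulated bins lacked the many zeros of the real ones. Shares of zeros, flank differences and pairs were not tested in this way. Alternatives changed the bin rule, the treatment of zeros, transcripts, thresholds, scaling and chromosomes. Python 3.11.15, numpy 2.4.6, pandas 2.3.3, scipy 1.17.1 and matplotlib 3.10.9 were used. Apart from *AGL24*, whose assignment to the named browser examples was not checked here, gene names were not analysed, nor were sequences.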

Additional observations from a re-analysis of the deposited data

How the results depend on the processing

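Of 158 alternative values, 114 kept their direction and stayed within the SD of the chromosome values (for pairs, the SD of the Cn chromosome means over all entries, which is not a spread of pair differences), 40 moved further and 4 changed sign. With the median in place of the mean, the 3' UTR level was 0 in Cn and 0 in An, the Cn minus An difference was 0 over all entries and 0 in homoeologous pairs, and the 3' UTR minus 5' UTR difference was 0 in Cn and 0 in An, by construction since most entries are at 0. The median of the downstream flank minus the 3' UTR was 2.51 points in Cn and 1.07 points in An. With bins at exactly 0 left out, the 3' UTR level was 6.12% in Cn and 5.32% in An, their difference 0.802 points, the flank minus 3' UTR difference 4.68 and 3.13 points, the 3' UTR minus CDS difference -2.05 and -1.87 points, and the 3' UTR minus 5' UTR difference -1.97 and -1.43 points (335 and 262 transcripts). The An 3' UTR minus 5' UTR difference was 0.104 points with values in all 4 bins and 0.119 points over unsplit 3' UTRs, and the pair difference -0.0710 points with values in all 4 bins. Scaling each subgenome by its own gene entries, expressed on the average of both scales, turned Cn minus An to -0.0747 points, and leaving out the 2 pairs of widest difference turned the pair value to 0.0134 points. With the 3 widest pairs left out, which is not among the 158 values, the pair value was -0.0192 points. The share of 3' UTRs at 0 was 69.0% in Cn and 72.2% in An with values in all 4 bins, 74.0% and 76.7% with 1 transcript per gene, and 84.7% and 87.0% when levels up to 1% were counted. In An it was 75.8% over unsplit 3' UTRs and 72.6% with entries that repeat all 12 values counted once. Highly methylated 3' UTRs made up 2.67% in Cn and 1.76% in An at a threshold of 10%, and 0.539% and 0.458% at 30%. The bin next to the 3' UTR exceeded it by 4.76 points in Cn and 3.51 points in An. Among levels under 20%, the 3' UTR minus CDS difference was -1.16 points in Cn and -0.990 points in An. Against the last CDS entry the 3' UTR was above in 19.8% and below in 42.8% of Cn transcripts, and in 18.4% and 40.6% in An. Against the mean of all CDS entries, the 3' UTR was by more than 1 point above in 8.06% and below in 47.6% in Cn, and in 7.39% and 42.2% in An. Over unsplit 3' UTRs 12.1% of An transcripts had the 3' UTR above. Where no construction is named, the cause was not tested. Counting each identifier once gave 3' UTR levels of 1.07% in Cn and 0.849% in An. No paired analysis was possible because there is 1 library and no replicate number. A coverage minimum could not be varied, since no depth is given.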
